A study of Homo sapiens with 30 samples.

Results

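The 10 genes GPR157, NCOA1, FAM171B, TCAIM, SLC49A4, FIG4, CROT, ZER1, GPR107 and LINC01419 were chosen by their counts at 24 h, because their transcripts were higher in cells with transcriptional mutagenesis (TM) of p53 than in cells with the wild type protein and also than in cells with the mutant protein. They are 10 of the 22 genes, among 20875 tested and 39359 in the count table, that were called higher in both contrasts (0.105% of the genes tested). Calls throughout have a Benjamini-Hochberg adjusted P under 0.05 in the edgeR quasi-likelihood test. Both of those contrasts at 24 h served to choose the genes and are given here as a description. The question asked of the other libraries was whether the lesion-bearing vector without the repair inhibitor, and the earlier time point, showed the same.

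The cells were H1299, an established human lung carcinoma line that lacks p53, between passages 7 and 12. They were transiently transfected with Lipofectamine and a plasmid on which GFP stood under a TRE-tight promoter of its own, and cells with GFP fluorescence were sorted 6 h or 24 h later. 5 groups at each time, with 3 biological replicates each, were compared. P values rest on the spread between replicates within groups, estimated from all 10 groups in a joint fit. The main fit did not use the pairing of replicate numbers found at 24 h. GFP control cells received pGFP, wild type p53 cells pP53WT, RW mutant p53 cells pP53RW with tryptophan in place of arginine at codon 248, and p53 O6-meG cells pP53O6-meG whose template strand carries O6-methylguanine at the same codon. Cells with p53 TM received this last plasmid after 10 µM O6-benzylguanine (O6-bzG), added 1 h before transfection. No other group received O6-bzG, so the drug and TM cannot be told apart in any comparison of TM cells, and p53, where present, came from a plasmid and not from the cells' own gene.

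O6-methylguanine is a mutagenic DNA lesion that O6-alkylguanine-DNA alkyltransferase (AGT, encoded by MGMT) removes in a single step that consumes the protein, and O6-bzG inactivates AGT. Where the lesion persists, RNA polymerase can insert uridine opposite it, so that one plasmid yields both wild type and mutant transcripts. The p53 protein activates genes such as CDKN1A by binding DNA near them, and the RW change lies in its DNA-contacting surface.

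Libraries held 32302699 to 71950532 counts, and each of the 10 genes held at least 184 counts in every library, so all 10 passed the filter on low counts. Levels are given as CPM, counts scaled to library size after TMM normalization. VIM, KRT8 and KRT18 were at 111 CPM or more everywhere, whereas the lung lineage marker NKX2-1 reached at most 1.2 CPM and SFTPB, SFTPC and PTPRC at most 0.108 CPM. At 6 h the titles of 2 libraries name both the O6-meG and the TM group, and each is replicate 2 of the group it is assigned to here. Grouped as their labels give in parentheses, CDKN1A was 50.04 CPM in the library labelled O6-meG against 268 and 261 in the other O6-meG libraries, and 249 CPM in the library labelled TM against 65.8 and 57.7 in the other TM libraries. The first part of each title, under which its counts were deposited, names the other group, and the CDKN1A level of each library lies with that group. Which name is right was not settled by the labels. In TM against O6-meG at 6 h, edgeR called 0 of all genes as labelled. With these 2 libraries exchanged (the other grouping) it called 406 higher and 1326 lower. A lack of calls as labelled can therefore not be told apart from the mixing of libraries of both groups. The 6 h comparisons are given as labelled, which means by the parentheses, and the calls in edgeR also with the other grouping and without both. RNA came from a pool of sorted cells, in which fewer cells expressing a gene and less RNA per cell cannot be told apart.

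Promoter windows from RefSeq (GRCh38.p14, from 250 bases before to 50 after a start site) were found for 8 of the 10 genes, all but ZER1 and LINC01419. The GC box GGGCGG, read on both strands, was present in 9 of their 11 windows and for 8 of these 8 genes, against 64.1% of the 18318 windows of genes tested and 45.0% of all 35116 windows. The CCAAT box (CCAAT, both strands) was found in 4 of the 11 windows, for CROT, FIG4, GPR107 and NCOA1, against 34.4% of the windows of genes tested. The p53 half-site was matched in 2 of the 11 windows, against 5.8% of the windows of genes tested. One was for FIG4, where it overlaps the last base of a GC box, and the other for TCAIM. The E-box CACGTG (9.1%), the xenobiotic response element core TNGCGTG (6.8%) and the cAMP response element TGACGTCA (2.7%) were matched in no window of the 8 genes. These matches describe letters and no binding was measured. The 250 bases upstream of 3 start sites are shown, GPR157 for its repeated GC boxes, FIG4 for its GC, CCAAT and p53 half-site matches, and CROT because TP53TG1 starts within the stretch. AK9 also starts within the FIG4 stretch. Capitals mark GC and CCAAT boxes.

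GPR157 (chr1:9129103-9129352, minus strand): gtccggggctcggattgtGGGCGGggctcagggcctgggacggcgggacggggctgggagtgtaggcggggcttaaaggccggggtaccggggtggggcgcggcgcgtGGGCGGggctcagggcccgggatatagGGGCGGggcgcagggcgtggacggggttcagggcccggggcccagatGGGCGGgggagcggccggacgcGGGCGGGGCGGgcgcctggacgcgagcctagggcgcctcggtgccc

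FIG4 (chr6:109691046-109691295, plus strand): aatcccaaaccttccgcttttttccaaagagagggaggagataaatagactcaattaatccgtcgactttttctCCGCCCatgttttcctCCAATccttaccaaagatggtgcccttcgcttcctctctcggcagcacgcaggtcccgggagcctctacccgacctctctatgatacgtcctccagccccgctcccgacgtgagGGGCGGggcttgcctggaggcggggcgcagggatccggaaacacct

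CROT (chr7:87345414-87345663, plus strand): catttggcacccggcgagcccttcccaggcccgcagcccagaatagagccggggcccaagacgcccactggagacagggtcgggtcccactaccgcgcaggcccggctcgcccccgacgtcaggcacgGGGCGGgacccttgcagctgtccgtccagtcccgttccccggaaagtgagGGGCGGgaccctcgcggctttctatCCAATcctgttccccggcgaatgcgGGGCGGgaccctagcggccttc

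Proteins of cell membranes made up the first set of genes. GPR157 (chr1:9100305-9129102, minus strand, hg38 with GENCODE v44 as for all positions below) encodes an orphan G protein-coupled receptor. At 24 h it stood at 11.8, 7.86 and 9.08 CPM in TM replicates 1 to 3, against 7.70, 5.55 and 7.38 with wild type p53, 7.33, 5.80 and 6.19 with RW mutant p53, 9.13, 6.11 and 6.84 with p53 O6-meG and 6.90, 5.97 and 5.71 with GFP. The TM libraries lay above all wild type and RW libraries, and TM replicates 2 and 3 lay below O6-meG replicate 1. GPR107 (chr9:130053426-130140169, plus strand) encodes a multipass membrane protein of the Golgi and the endosomal pathway. It was 154.5, 164.3 and 154.9 CPM in TM cells and 142.2, 142.5 and 142.6 CPM in O6-meG cells, where the replicates nearly coincided. The control cells were at 141.5, 142.2 and 142.7 CPM, wild type cells at 132.5, 137.1 and 137.8 CPM and RW cells at 141.3, 142.2 and 137.3 CPM, so that the TM libraries lay above the other 12 and the wild type libraries below all GFP and O6-meG libraries.

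SLC49A4 (chr3:122795069-122881139, plus strand) encodes a transporter of the lysosomal membrane. It was 30.3, 29.3 and 28.8 CPM in TM cells, above each of the other 12 libraries of 24 h, whose highest value was 26.7 CPM in O6-meG cells. The O6-meG libraries held 26.7, 26.7 and 25.7 CPM, wild type 22.9, 26.1 and 23.7, RW 24.2, 25.4 and 24.1, and GFP 22.3, 23.2 and 25.8 CPM. FAM171B (chr2:186694060-186765959, plus strand) encodes a membrane protein with little described function. It was 81.1, 73.4 and 64.6 CPM in TM cells and 72.9, 66.0 and 58.2 CPM in O6-meG cells. Wild type cells held 68.4, 60.5 and 50.8 CPM, RW cells 55.5, 53.03 and 54.2 and GFP cells 53.2, 55.9 and 49.8 CPM. Replicate 1 was the highest and replicate 3 the lowest in the wild type, O6-meG and TM groups alike, and TM replicate 3 lay below wild type replicate 1, the only overlap of TM with wild type or RW libraries among the 10 genes.

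Enzymes and organelle proteins formed the second set. FIG4 (chr6:109690609-109878098, plus strand) is a phosphoinositide phosphatase that works in a complex with the kinase PIKFYVE and the scaffold VAC14 on endosomes. It stood at 102, 105.5 and 98.1 CPM in TM cells and at 98.0, 103 and 90.6 CPM in O6-meG cells, which interleaved. The other groups were 89.9, 94.3 and 79.6 CPM (wild type), 89.7, 88.0 and 79.1 (RW) and 98.9, 89.3 and 85.2 (GFP), so a control library also reached into the TM range. CROT (chr7:87345664-87399794, plus strand) is the peroxisomal carnitine octanoyltransferase, which hands shortened fatty acyl groups to carnitine. Its levels were 46.4, 44.4 and 40.2 CPM with TM, 41.3, 40.5 and 35.1 with O6-meG, 34.6, 37.5 and 33.8 with wild type, 38.3, 38.0 and 35.0 with RW and 38.1, 36.6 and 36.1 with GFP. TM replicate 3 lay below O6-meG replicates 1 and 2 and above every library of the remaining groups. TCAIM (chr3:44338119-44409451, plus strand) encodes a mitochondrial protein named for inhibiting T cell activation. It was 31.0, 31.6 and 30.9 CPM in TM cells, 28.3, 28.9 and 27.8 CPM in O6-meG cells, 27.4, 25.4 and 26.3 in wild type, 24.9, 26.6 and 24.7 in RW and 22.1, 25.8 and 23.4 in GFP cells. All TM libraries lay above all O6-meG libraries and these above every wild type, RW and control library, while the last 3 groups overlapped.

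Regulators and the noncoding RNA completed the list. NCOA1 (chr2:24491254-24770702, plus strand) is a coactivator of nuclear hormone receptors. It was 73.8, 64.4 and 63.5 CPM in TM cells, 61.1, 54.7 and 58.1 in O6-meG cells, 57.8, 53.2 and 49.8 in wild type, 54.7, 54.2 and 50.4 in RW and 59.2, 54.0 and 53.8 CPM in GFP cells. Its TM libraries were above the other 12. ZER1 (chr9:128729786-128772414, minus strand) is a substrate receptor of a cullin 2 ubiquitin ligase. It was 104.5, 109.8 and 100.8 CPM with TM, 102, 100.7 and 85.8 with O6-meG, 87.6, 98.3 and 83.6 with wild type, 91.4, 91.8 and 81.4 with RW and 87.0, 87.0 and 82.5 with GFP. TM and O6-meG libraries overlapped, and no other library reached the TM range. The long intergenic noncoding RNA LINC01419 (chr8:83403758-83408900, plus strand) was 15.8, 20.8 and 22.4 CPM in TM cells. In O6-meG cells it was 12.8, 15.3 and 12.6 CPM, within the range of 12.0 to 14.8 CPM over the 9 wild type, RW and GFP libraries except for replicate 2.

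**Figure D1:**
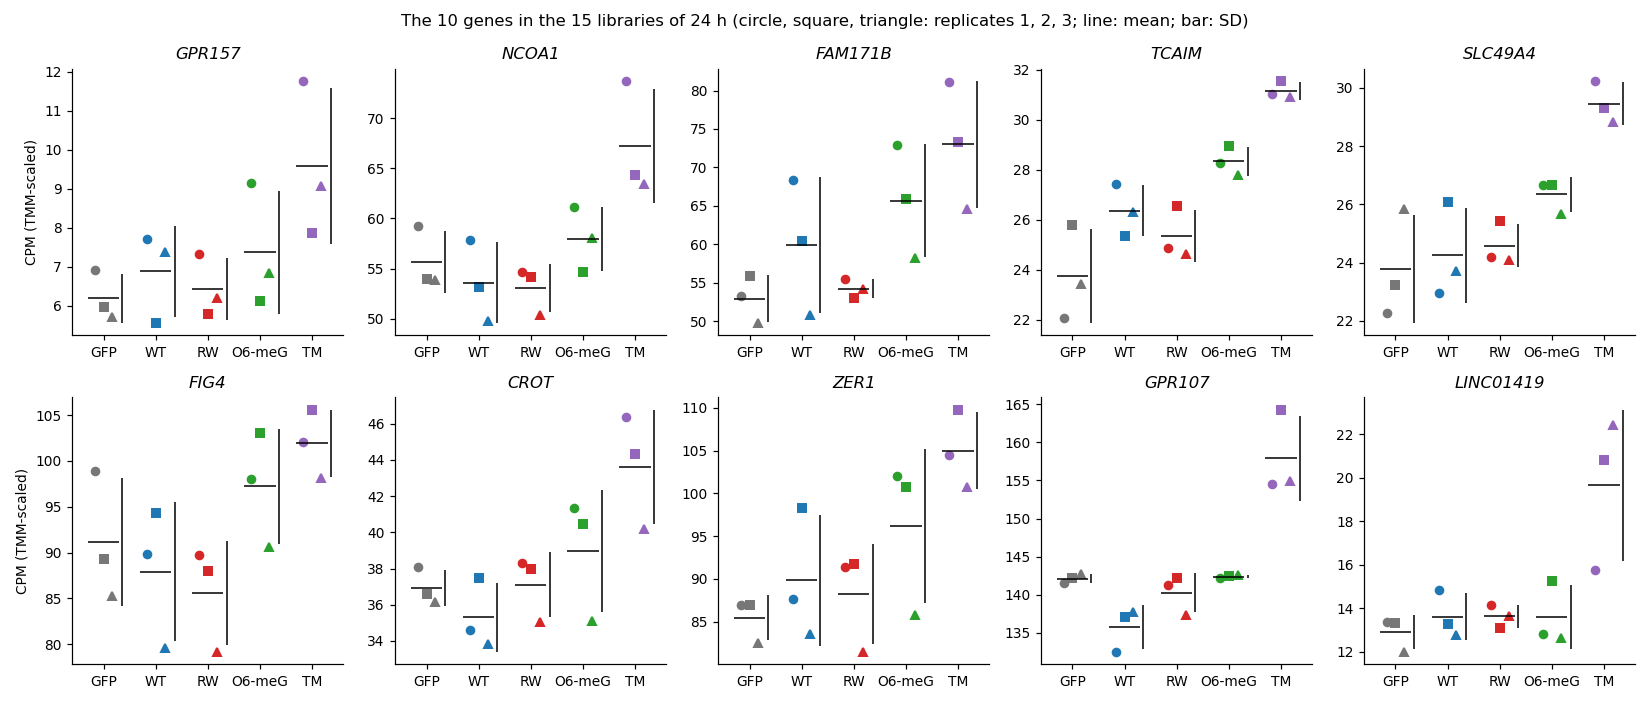
CPM after TMM scaling of each of the 10 genes in the 15 libraries of 24 h, by vector on the x axis (circle, square and triangle for replicates 1, 2 and 3, line for the mean, bar for the SD, n = 3, y axes not from 0). The TM mean is the highest in 10 of 10 panels, and the O6-meG mean comes next in 9, all but LINC01419. TM above wild type and RW follows from the choice, which also favours O6-meG above them. The share of all genes with this order was not counted, so the order is a description only.

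As a description of the choice, TM at 24 h exceeded wild type by log2 fold changes of 0.21 (FIG4) to 0.53 (LINC01419), which is 1.16 to 1.45 fold. It exceeded RW by 0.17 (GPR107) to 0.57 (GPR157), or 1.13 to 1.49 fold. Calls higher over all genes made up 8.46% against wild type and 7.11% against RW, and the 10 members are among both by choice. In 9 of the 10 genes all 3 TM libraries lay above all 6 wild type and RW libraries, which held for 1.25% of the genes tested, and in 5 (NCOA1, TCAIM, SLC49A4, LINC01419 and GPR107) above all 12 other libraries of 24 h, which held for 0.465%. Of the members, CROT and FAM171B were just inside the threshold, where the larger of the adjusted P values in edgeR was 0.0392 and 0.046. Just outside were ARMCX3, with log2 fold changes of 0.32 and 0.29 and a larger adjusted P of 0.0541, and KIAA1191 with 0.21 and 0.21 and 0.0543. The other 12 genes that met the same rule were ATG13, VPS39, ZNF235, WBP2, PRKAB2, PPARA, KATNIP, CHMP1B, TRAPPC2 and the identifiers ENSG00000213480, ENSG00000268081 and ENSG00000255085.

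Other transcripts also differed between these groups at 24 h. CDKN1A was 360 ± 66.7 CPM in TM cells, between 610 ± 149 CPM in O6-meG or 617 ± 152 CPM in wild type cells and 47.1 ± 3.0 CPM in RW cells, an order that none of the 10 genes followed. MGMT transcripts were 14.9 ± 0.52 CPM in TM cells and 17.5 ± 2.7 CPM in O6-meG cells. The part of these differences in the levels of the 10 genes was not tested.

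Against the control cells, whose libraries the choice did not use, 8 of the 10 genes were called higher in TM at 24 h, beside 7.71% of all genes, with log2 fold changes of 0.15 (GPR107) to 0.63 (GPR157). These values share the TM libraries with the choice and are a description. FIG4 (0.16 ± 0.069, SE) and GPR107 (0.15 ± 0.05) were not called, and GPR107 was called with the replicate block (0.15, edgeR adjusted P = 0.0364). Wild type against GFP gave −0.065 to 0.18 for the 10 genes and RW against GFP −0.09 to 0.094, which share their libraries with the choice in the other direction.

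The O6-meG cells without O6-bzG were compared first with GFP, a contrast that shares no library with the choice. GFP cells received no p53, so the lesion and the presence of p53 cannot be told apart in this contrast. FAM171B rose by a log2 fold change of 0.31 ± 0.10 (SE, edgeR adjusted P = 0.0194), a fold of 1.24, and TCAIM by 0.25 ± 0.069 (edgeR adjusted P = 0.00594), a fold of 1.19. These 2 of 10 genes stand beside 17.9% of all genes called higher in this contrast, so the share among the members was close to the background. None of the 10 was among the 11.3% called lower. ZER1 had 0.17 ± 0.074 with an edgeR adjusted P of 0.0856. It was called with a replicate block within the 24 h libraries (0.14, edgeR adjusted P = 0.0342), the fit that takes their pairing into account. A block fitted to both times together also called it (0.17, edgeR adjusted P = 0.0199). The members' median was 0.12 and that of all genes 0.0089. Wild type cells, which had p53 without the lesion, averaged 59.9 CPM for FAM171B against 52.96 CPM in GFP cells. For TCAIM the same means were 26.37 and 23.75 CPM. No member was called in wild type against GFP, and the part of p53 itself in these rises was not tested.

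The remaining 7 genes did not pass the test of O6-meG against GFP. SLC49A4 gave 0.15 (95% interval −0.0011 to 0.30), GPR157 0.25 (−0.069 to 0.56), FIG4 0.094 (−0.048 to 0.24), CROT 0.078 (−0.07 to 0.22), NCOA1 0.058 (−0.10 to 0.22), LINC01419 0.077 (−0.21 to 0.37) and GPR107 0.0035 (−0.10 to 0.11). Leaving out 1 library could add a call. SLC49A4 was called without GFP replicate 3 (0.21, edgeR adjusted P = 0.0472), and ZER1 without O6-meG replicate 3 (0.25, 0.0158). Such an omission could also remove the call of FAM171B or of TCAIM. FAM171B was not called without GFP replicate 3 (0.27, edgeR adjusted P = 0.0807) or without O6-meG replicate 1 (0.23, 0.115), and TCAIM was not called without GFP replicate 1 (0.21, 0.0503). Both also missed the threshold with no filter on low counts (edgeR adjusted P = 0.11 and 0.226) and in a fit of these groups alone (0.063 and 0.0859).

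Against wild type p53, the O6-meG cells gave no call among the 10 genes, nor among all 20875 (0% higher, edgeR), where 882 genes had an unadjusted P under 0.05. With the replicate block within the 24 h libraries 7 of all genes were higher and 67 lower, none of them a member. One of the 10, FIG4, had an unadjusted P under 0.05 in that edgeR fit and a log2 fold change of 0.15 ± 0.069 (edgeR adjusted P = 1.0), and DESeq2 called none of the 10. The fold changes were nonetheless all above 0 except that of LINC01419 (−0.0021, 95% interval −0.29 to 0.29), and ran from 0.069 (GPR107) to 0.15. Against RW mutant p53, FAM171B rose by 0.28 ± 0.10 (edgeR adjusted P = 0.0384) and FIG4 by 0.18 ± 0.069 (edgeR adjusted P = 0.0462), beside 17.2% of all genes called higher and 11.2% lower. DESeq2 called neither, with adjusted P of 0.0578 and 0.0832. Both contrasts share the wild type and RW libraries with the choice, which favours genes that were low in them, and are no independent evidence of direction.

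**Figure D2:**
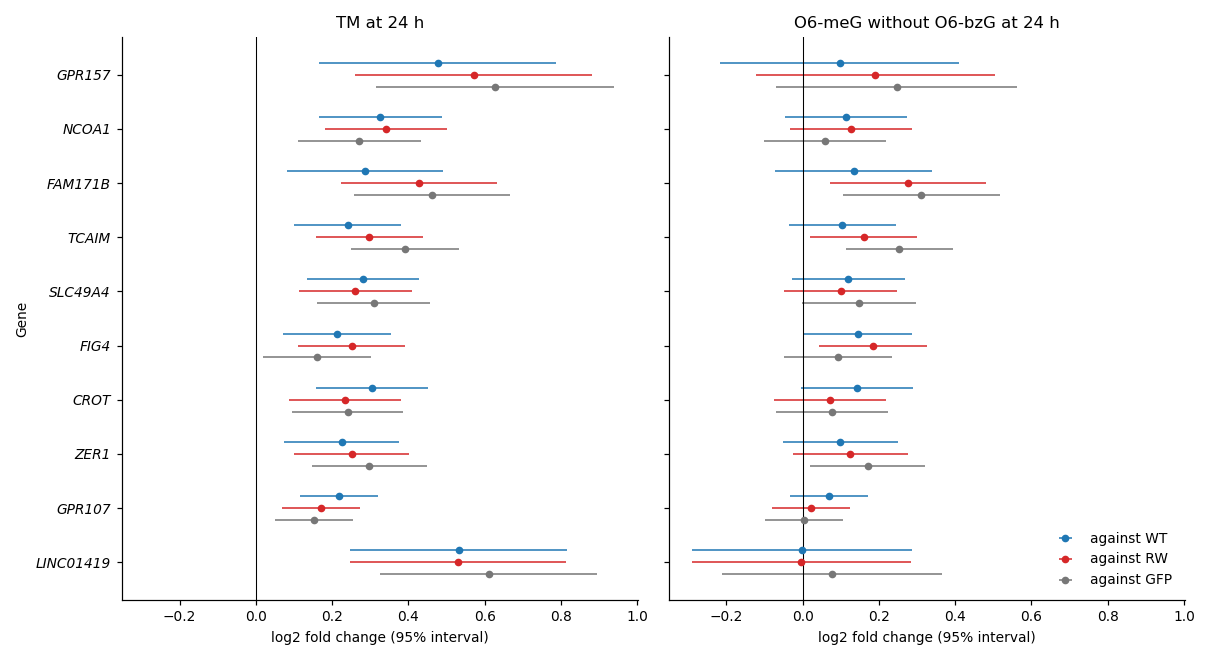
Log2 fold changes with 95% intervals (x axis) of the 10 genes (y axis) at 24 h, for TM cells on the left and O6-meG cells without O6-bzG on the right, each against wild type, RW and GFP cells. TM values run from 0.15 to 0.63 and O6-meG values from −0.0032 to 0.31.

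The values that follow, up to the contrast of TM with O6-meG, use the TM, wild type and RW libraries that chose the genes, so they are shaped by the choice and describe it only. Set as a part of the TM difference, the O6-meG mean lay above the average of wild type and RW means (log2 CPM) by 23.6% (GPR107) to 70.5% (FIG4) of the TM difference in 9 genes, with FAM171B at 57.3% and TCAIM at 49.0%. LINC01419 was at −1.7%, and the median over the 10 genes was 39.7%. With libraries matched by replicate number, O6-meG was above the average of wild type and RW for each of the 3 replicate numbers in every gene but LINC01419 (replicate 2 alone). TM was above O6-meG by 0.034 to 0.83 log2 units. One gene, TCAIM, had all 3 O6-meG libraries above all 6 wild type and RW libraries, which held for 0.613% of all genes tested. In the contrast of TM with O6-meG at 24 h, LINC01419 was the single member called higher without the pairing (0.53 ± 0.14, edgeR adjusted P = 0.0222), beside 2.51% of all genes. With the replicate number as a block, GPR107 was called as well (0.15, edgeR adjusted P = 0.0485). With the block within the 24 h libraries, 5 members were called, LINC01419 (0.53, edgeR adjusted P = 0.00276), GPR157 (0.37, 0.00606), NCOA1 (0.20, 0.00622), GPR107 (0.14, 0.0165) and CROT (0.15, 0.049), where 2042 of all genes were higher against 525 without it. These blocked fits were chosen after the data had been seen. This contrast shares the TM libraries with the choice and is also a description.

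At 6 h, no library had a part in the choice. With the labels as given, no member was called in edgeR in TM against wild type p53, where 0.024% of all genes were called higher and 0.0527% lower. No member was called against RW (background 0.0479% higher and 0% lower), against GFP (background 0.0766% higher and 0.00479% lower) or against O6-meG (background 0%). An unadjusted P under 0.05 in edgeR was found for 1 of 10 members against wild type, beside 3268 of all 20875 genes. For RW it was 3 members beside 1208 genes, for GFP 5 beside 1542 and for O6-meG 0 beside 395. DESeq2 called 1 member higher against wild type, LINC01419, and 2 against GFP, LINC01419 and TCAIM, but none against RW or O6-meG. Over all genes DESeq2 called 233 of 16467 higher against wild type, 85 of 17993 against GFP, 55 of 17993 against RW and 0 against O6-meG. Leaving LINC01419 aside, the other 9 genes lay within −0.03 and 0.087 of wild type on the log2 scale, within −0.06 and 0.084 with the other grouping, and within −0.07 and 0.092 without both libraries. As labelled, the same 9 genes ran from −0.053 to 0.30 against RW and from 0.047 to 0.27 against GFP, with no call. As labelled, NCOA1 was at −0.016 against wild type (95% interval −0.18 to 0.14), GPR107 at −0.016 (−0.12 to 0.088) and CROT at −0.0076 (−0.15 to 0.14).

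LINC01419 differed from the other members at 6 h. It was 35.7 and 32.5 CPM in TM replicates 1 and 3 and 24.4 and 24.6 CPM in O6-meG replicates 1 and 3, while the 9 GFP, wild type and RW libraries held 19.3 to 22.7 CPM. Of the 2 libraries with conflicting titles, the one labelled O6-meG held 33.8 CPM and the one labelled TM 23.3 CPM. As labelled, TM was 30.5 ± 6.4 CPM (SD, n = 3) and the log2 fold change against wild type was 0.55 ± 0.14 (SE, edgeR adjusted P = 0.0708), against RW 0.49 ± 0.14 (0.364), against GFP 0.55 ± 0.14 (0.189) and against O6-meG 0.14 ± 0.14 (1.0). Leaving out TM replicate 2 alone gave calls against wild type (0.71, edgeR adjusted P = 0.000613) and GFP (0.71, 0.0227).

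Without both libraries, the remaining 2 TM libraries held 34.1 ± 2.3 CPM, above all 11 other 6 h libraries, whose highest was 24.6 CPM, a pattern that 2.72% of all genes showed. LINC01419 was then called higher in TM than in wild type cells (0.71, edgeR adjusted P = 5.86e-05, beside 2.77% of all genes), RW cells (0.65, 0.0057, beside 0.145%), GFP cells (0.71, 0.00127, beside 0.192%) and O6-meG cells (0.48, 0.0229, beside 0.731%). With the other grouping, TM was 34.0 ± 1.6 CPM and O6-meG 24.1 ± 0.71 CPM (SD, n = 3 each), and all 3 TM libraries lay above the other 12, which held for 1.5% of all genes. TM against O6-meG was 0.50 (edgeR adjusted P = 0.000815, beside 1.94% of all genes). Under this grouping the calls against wild type (3.88e-06, beside 3.8%), RW (0.000784, beside 0.182%) and GFP (0.000112, beside 0.268%) were kept when any other library compared was left out, with adjusted P of at most 0.01. Nothing but LINC01419 among the 10 was called in TM at 6 h in edgeR under either treatment of the pair.

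**Figure D3:**
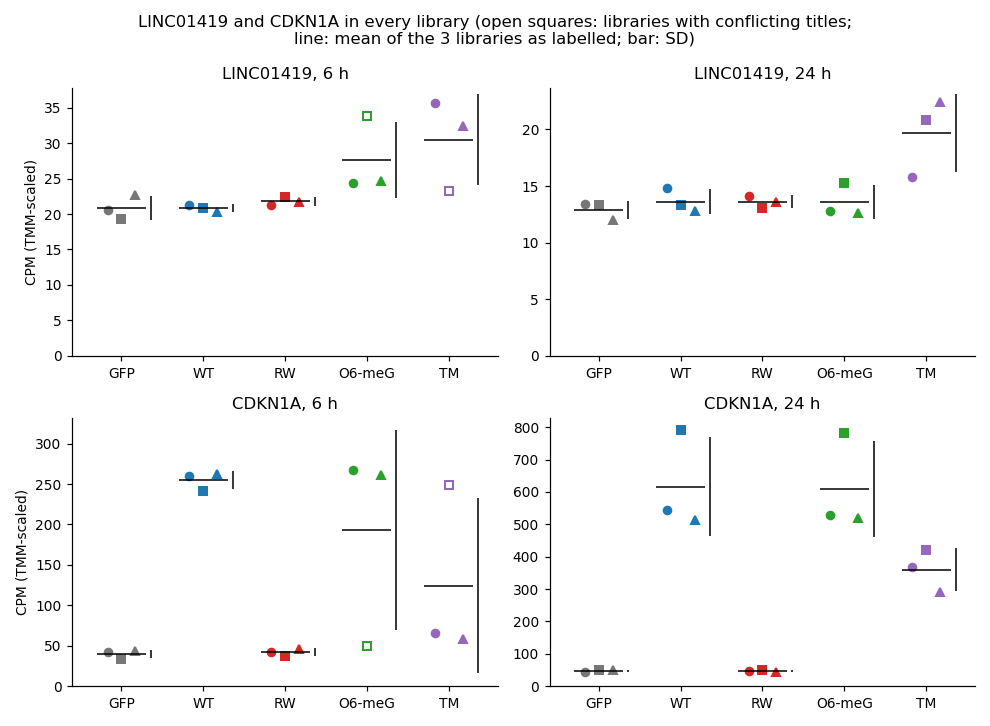
CPM of LINC01419 (top) and CDKN1A (bottom) by vector in the 15 libraries of 6 h and of 24 h, from 0, with open squares for the 2 libraries at 6 h with conflicting titles (line, mean of the 3 libraries as labelled, bar, SD, n = 3). The open squares of both genes lie with the filled points of the other group, for LINC01419 at 33.8 and 23.3 CPM.

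In the O6-meG cells at 6 h no member was called against GFP as labelled, where 0.345% of all genes were higher and 0.00479% lower. An unadjusted P under 0.05 in edgeR was found for 4 of 10 members, beside 2512 of all 20875 genes. TCAIM came nearest, at 34.3, 32.8 and 31.4 CPM against 25.5, 26.1 and 29.7 CPM in GFP cells, with no overlap, a log2 fold change of 0.28 ± 0.068 and an edgeR adjusted P of 0.0686. It was called with DESeq2 (0.26, adjusted P = 0.0132, beside 306 of 18756 genes), without both libraries (0.28, edgeR adjusted P = 0.0381, beside 4.32% of all genes) and with the other grouping (0.28, 0.00741, beside 6.27%), each time as the single member. TCAIM in wild type cells at 6 h was 31.2, 30.2 and 30.8 CPM, also above the 3 GFP libraries. LINC01419 in O6-meG cells at 6 h was 0.41 ± 0.14 above GFP as labelled (edgeR adjusted P = 0.197), 0.24 without both libraries (0.282) and 0.21 with the other grouping (0.218). The change with time of O6-meG against GFP was called for no member in edgeR or DESeq2, beside 5.28% of all genes called higher and 3.01% lower in edgeR. Its unadjusted P in edgeR was under 0.05 for 0 of 10 members and 4405 of all genes. Differences ran from −0.33 (LINC01419) to 0.17 (FAM171B) on the log2 scale. This change with time was called for no member with the other grouping or without both libraries either.

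The genes differed among themselves in control cells over time, a comparison added after values had been seen. Anything else that differed between the samples of the 2 times cannot be told apart from time in it. From 6 h to 24 h with GFP alone, ZER1 rose by a log2 fold change of 0.57 ± 0.074 (edgeR adjusted P = 1.26e-06), FIG4 by 0.56 ± 0.069 (6.71e-07), FAM171B by 0.39 ± 0.10 (0.0026), NCOA1 by 0.38 ± 0.078 (0.000323) and GPR107 by 0.20 ± 0.05 (0.00287). LINC01419 fell by 0.69 on the log2 scale (SE 0.14, edgeR adjusted P = 0.000273), from 20.6, 19.3 and 22.7 CPM to 13.4, 13.3 and 12.0 CPM with no overlap. TCAIM fell by 0.19 (SE 0.068, edgeR adjusted P = 0.0284), a call lost in DESeq2 (adjusted P = 0.0894) and without GFP replicate 3 of 6 h (0.187), replicate 1 of 24 h (0.152) or replicate 3 of 24 h (0.071). GPR157, SLC49A4 and CROT gave 0.094, 0.038 and −0.081 and were not called. These 5 genes higher and 2 lower stand beside 18.4% and 21.8% of all genes. TMM factors were 0.967 to 0.981 in the GFP libraries of 6 h and 1.09 to 1.16 in those of 24 h. With DESeq2's size factors in place of TMM, the 5 rises and the fall of LINC01419 were still called. TCAIM was then not called (−0.14, edgeR adjusted P = 0.0965). The part of normalization in these changes was not tested further.

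**Figure D4:**
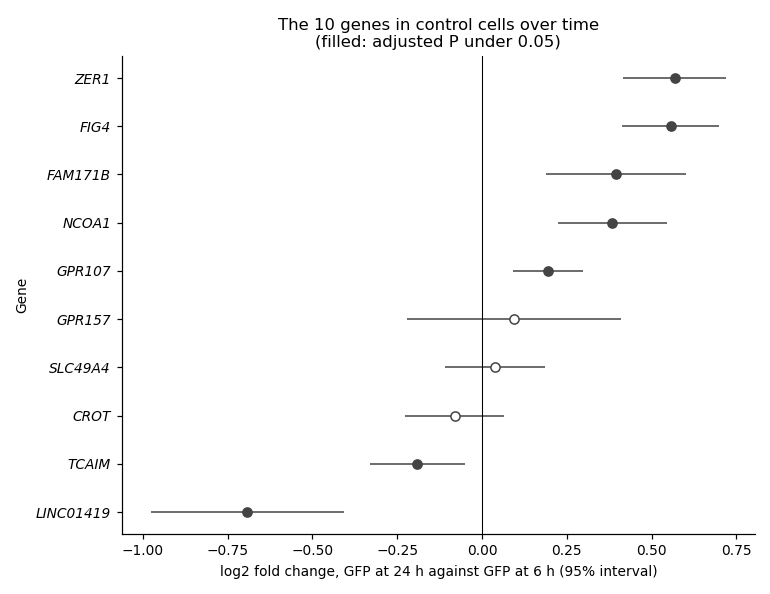
Log2 fold change with its 95% interval (x axis) of each of the 10 genes (y axis) in GFP cells at 24 h against 6 h, n = 3 libraries each, filled where the adjusted P was under 0.05. Values run from −0.69 for LINC01419 to 0.57 for ZER1.

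Across libraries the 10 genes were positively correlated at 24 h, where they were chosen, with Pearson's r of 0.447 to 0.894 (median 0.694) over the 45 pairs of genes and 15 libraries on the log2 CPM scale. At 6 h the median was 0.416 and r ran from −0.269 to 0.834, with 39 of 45 pairs above 0. Libraries of a group share a vector, replicate numbers paired the libraries of 24 h, and depth differed between libraries. These correlations are a description. Over all 30 libraries the non-member most like each of 9 genes was COPA for ZER1 (r = 0.983), DNAJC18 for FIG4 (0.977), RSPH3 for FAM171B (0.956), LINC00667 for LINC01419 (0.937), CREBRF for NCOA1 (0.931), COPG1 for GPR107 (0.915), SKP1 for SLC49A4 (0.855), RAB33B for TCAIM (0.85) and FBXL5 for CROT (0.735). Within a single time r could be far lower. For NCOA1 and CREBRF r was 0.856 within 24 h and 0.329 within 6 h. LINC01419 and LINC00667 kept 0.838 within 24 h and 0.804 within 6 h.

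For 6 members another annotated gene overlaps on the opposite strand, and whether the counting used strand is not given in the sources used here, so reads of such pairs may not have been told apart. TP53TG1, a noncoding gene named as a p53 target, starts 104 bases from CROT on the opposite strand, inside the CROT sequence shown above. It was 22.3 ± 3.2 CPM in wild type, 22.6 ± 3.2 CPM in O6-meG and 19.9 ± 2.7 CPM in TM cells at 24 h, against 8.0 ± 0.58 CPM in RW and 8.6 ± 0.66 CPM in GFP cells (SD, n = 3), and rose in O6-meG against GFP by 1.39 ± 0.24 (edgeR adjusted P = 6.51e-05). CROT did not follow this order, with 35.3 ± 1.9 CPM in wild type and 36.9 ± 1.0 CPM in GFP cells. AK9 overlaps FIG4 on the opposite strand and stood at 10.7 ± 0.74 CPM in TM, 8.3 ± 1.4 CPM in wild type and 10.7 ± 2.0 CPM in RW cells, with no call in TM against wild type (0.38 ± 0.16, edgeR adjusted P = 0.101) or RW (−0.00077 ± 0.16, 0.999). Of the other overlapping or adjacent genes that passed the filter, HSPBAP1 beside SLC49A4 and ZDHHC12-DT over ZER1 were not called in TM against wild type or RW or in O6-meG against GFP at 24 h (edgeR adjusted P of at least 0.199), and the transcript ENSG00000271937 over the TCAIM start reached at most 16 counts.

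**Figure D5:**
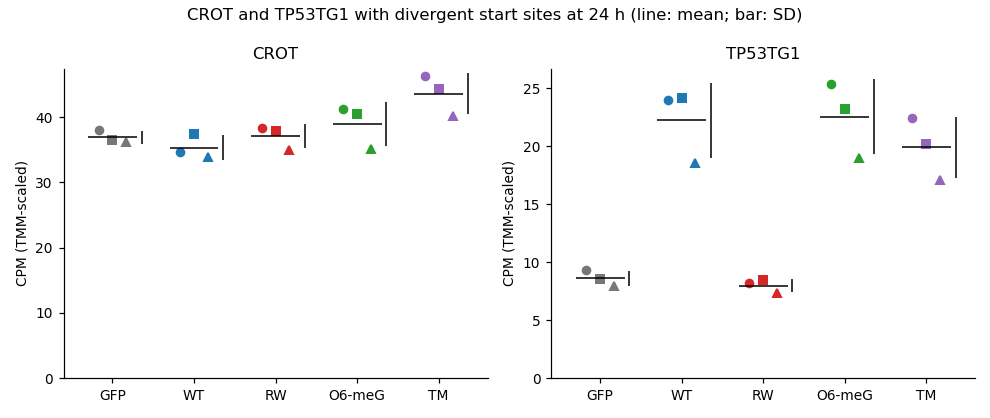
CPM of CROT and of TP53TG1, whose start lies 104 bases away on the opposite strand, by vector in the 15 libraries of 24 h, from 0 (line, mean, bar, SD, n = 3). TP53TG1 averages 19.9 to 22.6 CPM with wild type, O6-meG and TM and 8.0 to 8.6 CPM with RW and GFP, an order that CROT does not share.

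Relatives and partners of the members were listed by family and complex, 25 in all, and 25 passed the filter. In O6-meG against GFP at 24 h, 7 of the 25 were called higher and 2 lower in edgeR, beside 17.9% and 11.3% of all genes. In TM at 24 h, CPT2, ABCD3, PIKFYVE, NCOA2 and CUL2 were called higher than wild type, beside 8.46% of all genes. SLC49A3, CRAT and CPT1A were called lower than wild type, beside 2093 of all 20875 genes. ZYG11B, TMEM87B, SLC49A3 and CRAT were called higher than RW, beside 7.11% of all genes. No relative was called lower than RW, beside 320 genes. No relative met the rule that chose the 10. The rule was met by 0.105% of the genes tested, so this is not a result about the relatives. SLC49A3 rests on at most 50 counts in a 24 h library.

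NCOA2, a coactivator of the same family as NCOA1, was 114 ± 5.3 CPM in GFP, 110 ± 8.8 CPM in RW and 111 ± 3.9 CPM in TM cells, but 90.4 ± 3.9 CPM with wild type p53. It fell with wild type against GFP by 0.34 on the log2 scale (SE 0.06, edgeR adjusted P = 6.82e-05) and in O6-meG against GFP by 0.24 (SE 0.06, edgeR adjusted P = 0.00366), whereas NCOA1 gave −0.055 and 0.058 in the same contrasts. PIKFYVE, the kinase of the FIG4 complex, fell with wild type against GFP by 0.27 (SE 0.086, edgeR adjusted P = 0.0136) and stood at 0.067 in TM against RW (edgeR adjusted P = 0.765). VAC14 was not called in TM against wild type or RW (−0.056 and 0.11).

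Among the carnitine acyltransferases, CRAT, which makes acetylcarnitine, and CPT1A, which admits long-chain fatty acids to mitochondria, showed another order than CROT. CRAT was 95.4 ± 10.6 CPM with wild type, 86.2 ± 8.9 CPM with O6-meG and 77.5 ± 1.0 CPM with TM, against 60.3 ± 3.0 CPM with RW and 59.1 ± 2.9 CPM with GFP. In O6-meG against GFP it rose by 0.54 ± 0.08 (edgeR adjusted P = 9.06e-06) and CPT1A by 0.60 ± 0.10 (6.12e-05), while CROT gave 0.078 (0.466). In TM against wild type CRAT fell by 0.30 (edgeR adjusted P = 0.00974) and CPT1A by 0.36 (0.0152), the opposite direction to the 0.30 of CROT. CPT2, the inner partner of CPT1A, was nearest to the members, at 0.34 against wild type (edgeR adjusted P = 0.00492) and 0.25 against RW (0.057).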

How the data were processed

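RNA-seq libraries from 10 groups of 3 biological replicates of sorted H1299 cells were analysed. The authors deposited raw read counts per gene, made by aligning single reads to hg38 with STAR 2.5.3a and counting on GENCODE v27 with featureCounts of Subread 1.5.2. The strand setting is not given in the sources used here, so reads from overlapping genes on opposite strands may not have been told apart. A deposited normalized table was not used. Libraries held 32302699 to 71950532 counts.

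Counts were filtered with filterByExpr (20875 of 39359 genes tested), TMM-scaled and fitted in all groups together with edgeR 4.0.16 in R 4.3.3. Each contrast used the quasi-likelihood test, and Benjamini-Hochberg adjusted P values cover every gene tested. A gene was called at an adjusted P under 0.05, with no fold limit. Scripts were tested on simulated data. Errors of fold changes are standard errors, and those of levels are SD.

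The members and lists were chosen with earlier results of these data known. Named genes are the members, 25 relatives and partners listed by family and complex, overlapping or adjacent annotated genes, for each member the gene most correlated with it over the libraries, CDKN1A and MGMT, and cell type markers, less some genes that are not reported here. Genes that met the same rule or just missed it were named after their values were seen, and so was the comparison of control cells over time.

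Replicate numbers paired the 24 h libraries: deviations from group means correlated above 0.1 in 30 of 30 pairs with the same number (0.164 to 0.578), and in 9 of 60 other pairs. At 6 h, over control, wild type and RW cells, 4 of 9 did. No pair of replicates agreed within counting noise (chi-square per degree of freedom at least 5.51). Alternatives were DESeq2's size factors, the Wald test of DESeq2 1.42.0, no filter, a minimum of 10 counts per library, fits restricted to the groups compared, a replicate block, the other grouping or omission of the pair of libraries with conflicting titles, and each library left out.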

Additional observations from a re-analysis of the deposited data

How the results depend on the processing

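Among the alternatives run, no called value of a member reversed. In O6-meG against GFP at 24 h, 0 of the 10 genes were higher with no filter on low counts or in a fit of only the groups compared, and 1 to 3 when any replicate was left out. In O6-meG against RW at 24 h the count was 0 with DESeq2 size factors, with no filter, with at least 10 counts in every library, in a fit of only the groups compared and in DESeq2, 1 without both libraries with conflicting titles, and 0 to 2 when any replicate was left out. In O6-meG against wild type it was 0 throughout. The cause of these changes was not tested. In TM at 6 h, 1 gene was higher than wild type with no filter, with the other grouping (also with any further library left out), without both libraries and in DESeq2, and 0 to 1 when any replicate was left out. Against RW and against O6-meG it was 1 with the other grouping, also with any further library left out, and without both libraries, and 0 when any replicate was left out. Against GFP it was 1 with the other grouping, also with any further library left out, and without both libraries, 2 in DESeq2, and 0 to 1 when any replicate was left out. In O6-meG against GFP at 6 h it was 1 with the other grouping, which was also found without GFP replicate 3 or O6-meG replicate 3, without both libraries and in DESeq2, and 0 to 1 when any replicate was left out. In GFP cells over time, 1 gene was lower with DESeq2 size factors, no filter, at least 10 counts, only the groups compared and in DESeq2, 1 to 2 when any replicate was left out, and 5 were higher throughout these omissions.

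Over all genes, counts moved more. Over all settings, those lower in O6-meG at 24 h ran from 1562 to 4419 against GFP and from 1403 to 4278 against RW. At 6 h, those higher in TM against wild type ran from 0 to 793 and those lower from 0 to 2261. Those higher in O6-meG against GFP at 6 h ran from 2 to 1309. The highest count of each at 6 h came with the other grouping. With the replicate block, 3 members were higher in O6-meG than in GFP at 24 h, 2 than in RW and 0 than in wild type, and 5 members were higher in TM than in O6-meG at 24 h with the block within 24 h and 2 with it over all libraries, against 1 without it. In TM against GFP at 24 h the count was 9 with either block and 8 without. Calls higher over all genes also rose with the block. In TM against GFP they were 1609 without it, 1846 with it over all libraries and 2631 with it within 24 h. The same 3 counts were 3743, 4027 and 4817 in O6-meG against GFP, 3593, 3852 and 4642 in O6-meG against RW, and 525, 756 and 2042 in TM against O6-meG. In the other comparisons fitted with the block, it changed no member's call. Over all genes the block within 24 h gave 3360 lower in TM than in O6-meG against 831, and 7 higher and 67 lower in O6-meG than in wild type against 0. The 6 h numbers were not shown to pair. Groups of 3 limit what small differences could be called.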
